A study of Mus musculus with 36 samples.

Results

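The heat shock and ER chaperones described here are 10 genes. They are Hspa1a, Hspa1b, Hsph1, Hspb1, Dnajb1, Hspa8 and Hsp90aa1, whose products are chaperones of the cytosol, and Hspa5, Hsp90b1 and Pdia4, whose products fold proteins in the endoplasmic reticulum (ER). The genes were listed by name, not by a threshold on measured values, but with earlier results of these data known. Their counts set against shares of all genes are therefore a description. The list covers 10 of the 56980 gene rows of the table of raw counts. Every one of the 10 passed the filter on low counts and was among the 25601 genes tested. The samples were 36 samples of polyA-selected brain RNA from mice aged 37 to 45 days. Mice lacking Ndufs4 (knockout, KO) and wild type mice (WT) were given either CP2 or vehicle by gavage, on 3 days in a row. CP2, a small-molecule inhibitor, acts on complex I of the mitochondrial respiratory chain. Ndufs4 encodes a subunit of complex I, so CP2 was given here to animals that carry a genetic defect of its target complex as well as to controls. Each title has the letter F or M, and genotype, treatment and letter define 8 groups. The 4 F groups and the 2 CP2 M groups held 5 samples each, and the 2 vehicle M groups held 3 each. The labels name the tissue brain and the design text hippocampus and cortex, so the mix of regions in a sample is not known. The labels do not say whether the knockout is in all cells, and nothing beyond the separate titles states that the samples came from separate animals, so p-values measure the spread between these samples.

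Chaperones bind unfolded stretches of protein and, with ATP and co-chaperones, release them for folding. HSP70 proteins (the products of Hspa1a, Hspa1b and Hspa8 in the cytosol and of Hspa5 in the ER) take their substrates from DNAJ partners such as the product of Dnajb1, and Hsph1 encodes an HSP110 that exchanges their nucleotide. Hsp90aa1 and Hsp90b1 encode the HSP90 proteins of the cytosol and the ER. Hspb1 encodes a small heat shock protein that holds unfolded proteins without ATP, and Pdia4 an ER disulfide isomerase. Heat shock factor 1, encoded by Hsf1, switches on cytosolic chaperone genes when unfolded protein builds up, and the ATF6 and XBP1 branches of the unfolded protein response do so for ER chaperone genes. In the brain Hspa8 and Hsp90aa1 are abundant without stress, while Hspa1a and Hspa1b are low unless induced.

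Promoter sequences were available from RefSeq (build GRCm38.p6, covering 250 bases before to 50 after a start site) for 8 of the 10 genes. The sequences below show how alike the promoters of 2 of the genes are and where letters of stress response elements lie. Likeness of promoters does not measure how well reads of the transcripts can be told apart. The 250 bases before the start sites of Hspa1a (chr17:34972157-34972406, minus strand) and Hspa1b (chr17:34959239-34959488, minus strand) differ at 3 bases, shown in capitals.
Hspa1a: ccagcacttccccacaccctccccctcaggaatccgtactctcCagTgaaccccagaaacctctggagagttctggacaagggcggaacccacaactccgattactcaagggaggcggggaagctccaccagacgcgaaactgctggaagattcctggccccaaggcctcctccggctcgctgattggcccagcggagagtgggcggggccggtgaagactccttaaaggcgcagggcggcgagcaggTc
Hspa1b: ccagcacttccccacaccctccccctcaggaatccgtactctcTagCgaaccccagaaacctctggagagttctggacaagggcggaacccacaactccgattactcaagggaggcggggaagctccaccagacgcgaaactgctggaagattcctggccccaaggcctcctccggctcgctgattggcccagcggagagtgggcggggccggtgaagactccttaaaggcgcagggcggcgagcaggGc
The 250 bases before the starts of Hspa5 (chr2:34771840-34772089, plus strand) and Hsp90b1 (chr10:86705445-86705694, minus strand) hold the letters of the ER stress element in capitals (CCAAT, 9 bases of any kind, then CCACG). Searched on both strands, that element was found in 0.119% of the 32851 promoters in the table, in Hspa5 once and in Hsp90b1 at 2 places, the second of them on the opposite strand.
Hspa5: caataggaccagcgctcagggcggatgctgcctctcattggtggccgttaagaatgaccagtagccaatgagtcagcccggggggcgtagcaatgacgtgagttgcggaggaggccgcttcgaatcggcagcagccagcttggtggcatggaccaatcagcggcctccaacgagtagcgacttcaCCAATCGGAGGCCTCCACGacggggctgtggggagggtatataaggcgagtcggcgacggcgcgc
Hsp90b1: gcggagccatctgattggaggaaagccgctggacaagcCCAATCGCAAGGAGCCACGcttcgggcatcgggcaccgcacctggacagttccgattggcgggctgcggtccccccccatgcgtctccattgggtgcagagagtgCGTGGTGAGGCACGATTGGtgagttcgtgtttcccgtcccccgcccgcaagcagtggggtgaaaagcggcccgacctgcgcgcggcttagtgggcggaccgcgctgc
Hsph1 (chr5:149636279-149636308, minus strand) holds the heat shock element (GAA, 2 bases of any kind, TTC, 2 of any kind, GAA), read on the opposite strand and in capitals, from 16 to 28 bases after one of its annotated start sites. This element was found in 0.603% of the same promoters, and among the 8 genes with a promoter in Hsph1 alone.
Hsph1: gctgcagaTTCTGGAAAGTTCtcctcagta
A match is a run of letters in this window. Only these exact letters were searched, so a gene without a match can still hold a variant of the element. Binding of a factor was not measured here.

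Counts assigned to genes ranged from 46100000 to 88600000 per sample (median 54700000), and the lowest count of any of the 10 genes in any sample was 184 (Hspb1). Ndufs4 itself measured 27.4 to 39.1 CPM (the usual depth-scaled count, computed with normalised library sizes) in KO and 38.9 to 62.8 CPM in WT, so its transcript was still counted in KO brains. All 8 neuron markers were present in all 36 samples, with Rbfox3 at 185.5 to 322.2 CPM. Several libraries stood apart in some measure. In KO CP2 M, pairs that included L266 differed by a mean chi-square per gene of 83.2 or more and the remaining pairs by 40.7 or less. Correlations did not set L266 apart, at 0.971 to 0.977 in pairs with it and 0.968 to 0.978 in the others. A single abundant gene, ENSMUSG00000119584, held 1.01% of gene counts in L266 and 4.79% to 5.87% in the other samples of that group. Its part in the chi-square was not tested. L291 had Xist, the transcript of the inactive X chromosome, at 47.3 CPM against at most 0.833 in the other M samples. L252 (WT vehicle F) and L257 (WT CP2 F) had the highest value of their group for all 10 chaperones, and L246 (KO vehicle F) had 4226.2 summed CPM of 10 immediate early genes, against a median of 489 in its group. Results are therefore also given without L252, L257 and L246, and without L266 and L291. Near-identical copies limit some counts: 56.5% of the 100-base stretches of Hspa1a, 49.9% of Hspa1b, 44% of Hspb1, 57.1% of Hspa8 and 40.7% of Hsp90aa1 also occur in another annotated gene, chiefly each other for the Hspa1 pair and the pseudogenes Hsp25-ps1, Gm15459 and Gm12346 for the rest. How the authors' counting treated such reads is not stated, so the levels of these 5 genes are uncertain. Hsph1, Hspa5, Pdia4 and Dnajb1 share none, and Hsp90b1 shares 7.37%. Whether counting used strand is not given in the sources used here, and Hspa1a and Hsp90b1 overlap genes of the opposite strand over 19% and 10.3% of their exon bases.

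Levels were compared between genes per length of exon. Hspa8 stood at 326.6 and Hsp90aa1 at 253.1 CPM per kilobase of exon, as means over all samples. The ER chaperones Hsp90b1 and Hspa5 followed at 63.5 and 56.6, then Hsph1 at 34, Dnajb1 at 17.9, Pdia4 at 15.8 and Hspb1 at 8.89. Hspa1b and Hspa1a were lowest, at 3.26 and 2.49 CPM per kilobase.

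Several chaperone transcripts, cytosolic and ER, were lower in KO than in WT brain with either treatment. None of the 10 was higher in KO in the averages over F and M by edgeR, where 2.87% of all genes tested were called higher under vehicle and 5.54% under CP2. At an unadjusted p under 0.05 it was again 0 of 10, with 10.5% and 12.6% of all genes. Averaged over F and M, 4 of 10 fell under vehicle, namely Hsph1, Hspa8, Hsp90aa1 and Hsp90b1, where 3.8% of all genes tested were called lower. Under CP2 7 of 10 fell, namely these 4 with Hspa1b, Hspa5 and Pdia4, where 6.07% of all genes were called lower. Here called means an adjusted p below 0.05 (edgeR quasi-likelihood test, Benjamini-Hochberg over all genes tested in the comparison). The median log2 fold change of the 10 was -0.25 under vehicle and -0.42 under CP2, against 0.02 and 0.01 over all genes tested. Hspa1a, Hspb1 and Dnajb1 were not called in any of these comparisons. The vehicle and CP2 comparisons share no samples. Both called the same 4 genes lower (Hsph1, Hspa8, Hsp90aa1 and Hsp90b1), as they did 1.29% of all genes. The log2 fold change was below 0 in all 4 comparisons within a letter for 6 of the 10 (these 4 with Hspa5 and Pdia4) and for 11.7% of all genes. In whole tissue, fewer cells of a type and less RNA per cell cannot be told apart.

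**Figure D1:**
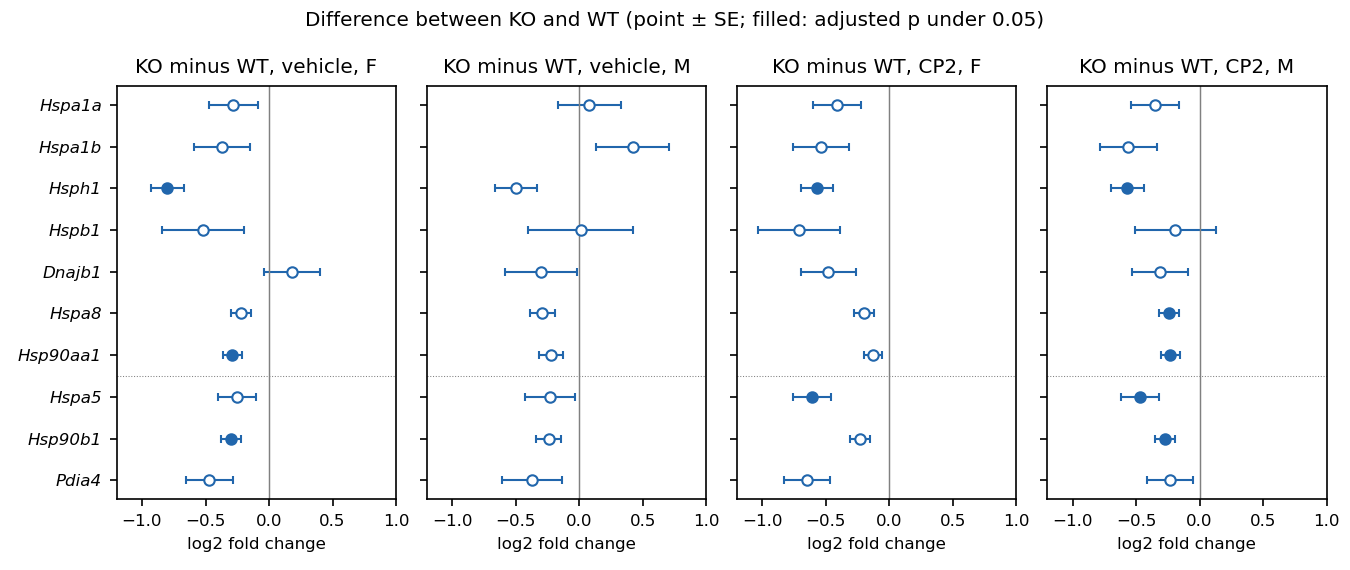
Log2 fold change of each chaperone, KO against WT, with its standard error (horizontal bars) in the 4 comparisons within a treatment and letter; filled points have an adjusted p under 0.05, and the dotted line separates cytosolic from ER genes. Filled points all lie left of 0, and Hsph1 is filled in 3 of the 4 panels, from -0.80 to -0.57.

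Hsph1, the HSP110 gene, changed most under vehicle. In vehicle F it measured 379.1, 262.4, 250.8, 292.8 and 292.2 CPM in WT samples L252, L277, L278, L295 and L296, and 171.5, 161.0, 129.3, 178.2 and 209.8 CPM in KO samples L246, L279, L281, L282 and L283. All 5 KO samples lay below all 5 WT samples. The log2 fold change was -0.80 (SE 0.129, adjusted p 5e-04 by edgeR), a fall of 42.6%. In vehicle M, WT samples L285 and L303 measured 281.6 and 270.9 CPM with L300 between them, and KO samples L310, L319 and L322 measured 219.5, 184.1 and 185.0 CPM. The groups again did not overlap, and the fitted change of -0.50 (SE 0.166) did not pass the test (adjusted p 0.167). In CP2 F, WT samples L228, L240, L257, L272 and L311 measured 300.3, 287.4, 374.9, 305.2 and 243.3 CPM, and KO samples L201, L216, L227, L233 and L234 measured 147.2, 192.4, 194.6, 201.9 and 280.2 CPM. Here 1 KO sample, L234, lay above the lowest WT sample, L311. In CP2 M, WT samples L259, L262, L263, L267 and L289 measured 325.9, 339.0, 333.3, 292.1 and 269.2 CPM, and KO samples L266, L291, L292, L298 and L299 measured 218.0, 191.1, 210.2, 219.9 and 209.5 CPM, without overlap. Both CP2 comparisons gave a log2 fold change of -0.57 (SE 0.129), with an adjusted p of 0.016 in F and 0.00355 in M. Ordered by mean, the 4 WT groups stood highest, at 311.9, 302.2, 295.5 and 276.8 CPM (CP2 M, CP2 F, vehicle F, vehicle M). The KO groups followed at 209.7, 203.3, 196.2 and 170 CPM (CP2 M, CP2 F, vehicle M, vehicle F). The step from the lowest WT to the highest KO group was the only one between neighbours larger than both groups' SD. The average over F and M was -0.65 (SE 0.105, adjusted p 0.000331) under vehicle and -0.57 (SE 0.091, adjusted p 7.23e-05) under CP2. Without L252, L257 and L246 the averages were -0.59 and -0.52 and both passed, but the CP2 F comparison did not (-0.47, adjusted p 0.0591). The CP2 F call also failed when L201 or L257 alone was left out, with an adjusted p of at most 0.0726, and in a fit on F samples alone.

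**Figure D2:**
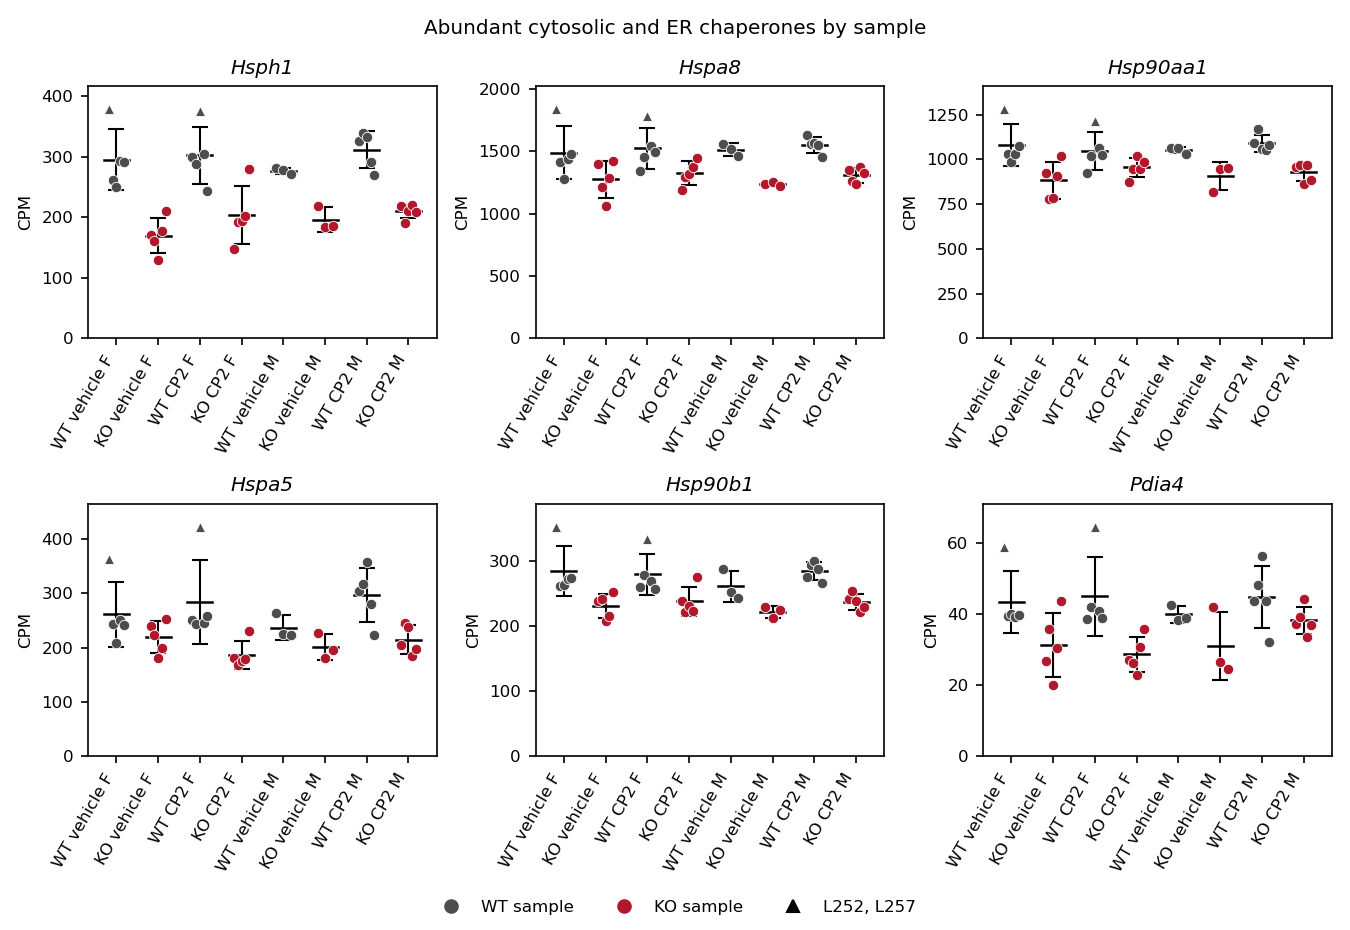
CPM per sample (points) with group mean and SD (bars) for Hsph1, Hspa8, Hsp90aa1, Hspa5, Hsp90b1 and Pdia4 in the 8 groups; triangles mark L252 and L257. KO samples of Hsph1 lie between 129.3 and 280.2 CPM and WT samples between 243.3 and 379.1 CPM, and the triangles are the highest points of their groups.

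Hspa8, the constitutive HSP70, had the highest level of the 10 and a smaller difference. In vehicle F, WT samples measured 1838.0, 1411.4, 1278.8, 1438.8 and 1476.0 CPM and KO samples 1394.9, 1209.9, 1059.8, 1281.1 and 1422.8 CPM, in the sample order given for Hsph1. The groups overlapped, and the log2 fold change of -0.22 (SE 0.0778) did not pass (adjusted p 0.0807 by edgeR). In vehicle M, WT samples measured 1559.3, 1515.0 and 1458.4 CPM and KO samples 1237.8, 1249.0 and 1222.5 CPM. These groups did not overlap, but the change of -0.29 (SE 0.101) did not pass the test of 3 against 3 samples (adjusted p 0.179). In CP2 M, WT samples measured 1632.5, 1556.6, 1564.1, 1546.2 and 1451.3 CPM and KO samples 1352.1, 1258.3, 1233.4, 1373.7 and 1322.6 CPM. There was no overlap, and the fall of 15.3% passed (log2 fold change -0.24, SE 0.0778, adjusted p 0.0371), though not without L266 and L291 (adjusted p 0.123), nor without any one of L291, L292, L299, L259, L262 and L263 (adjusted p at most 0.0909). In CP2 F the change of -0.20 (SE 0.0778) did not pass (adjusted p 0.173). The averages were -0.26 (SE 0.0636, adjusted p 0.0104) under vehicle and -0.22 (SE 0.055, adjusted p 0.00531) under CP2, and both held without L252, L257 and L246.

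Hsp90aa1, the inducible form of cytosolic HSP90, fell in vehicle F. WT samples measured 1282.1, 1031.2, 987.3, 1029.4 and 1073.2 CPM and KO samples 924.6, 777.4, 786.4, 909.5 and 1019.9 CPM. Only KO sample L283 reached into the WT range. The log2 fold change was -0.29 (SE 0.0739, adjusted p 0.0172 by edgeR), and it was no longer called without L252, L257 and L246 (-0.23, adjusted p 0.0826) or without any one of L252, L279 and L281 (adjusted p at most 0.087). In vehicle M, WT samples measured 1061.8, 1064.4 and 1031.7 CPM and KO samples 815.6, 948.9 and 954.4 CPM. There was no overlap, and the change of -0.22 (SE 0.0954) did not pass (adjusted p 0.329). In CP2 M, WT samples measured 1090.6, 1168.1, 1056.9, 1054.9 and 1078.4 CPM and KO samples 958.4, 967.6, 861.2, 969.8 and 885.4 CPM. All KO samples lay below all WT samples. That difference was -0.23 (SE 0.0739, adjusted p 0.0385 by edgeR). It did not pass without L266 and L291 (adjusted p 0.0643), nor without any one of L266, L292, L299, L259, L262, L263 and L289 (adjusted p at most 0.118). In CP2 F the change of -0.13 (SE 0.0739) did not pass (adjusted p 0.382). The averages were -0.25 (SE 0.0604, adjusted p 0.00787) under vehicle and -0.18 (SE 0.0522, adjusted p 0.0168) under CP2.

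The heat-inducible genes Hspa1a, Hspa1b and Hspb1 were low in every group, and of these and Dnajb1 only Hspa1b was called, in the CP2 average. Hspa1b, an inducible HSP70, measured 8.31, 9.67, 18.4, 8.77 and 9.67 CPM in WT CP2 F and 9.48, 5.06, 7.8, 8.24 and 7.25 CPM in KO CP2 F. In CP2 M it measured 11.7, 11.4, 16.9, 9.71 and 8.01 CPM in WT and 5.84, 8.29, 8.54, 8.72 and 7.6 CPM in KO. The groups overlapped in both, with L257 and L263 the highest, and the average over F and M was -0.55 (SE 0.157, adjusted p 0.0182 by edgeR). Without L266 and L291 it was -0.50 (adjusted p 0.0636), and it also failed when L257 or L263 alone was left out (adjusted p at most 0.0535). Under vehicle Hspa1b averaged 0.02 (SE 0.182, adjusted p 0.961). Its copy Hspa1a had a CP2 average of -0.38 and did not pass (SE 0.134, adjusted p 0.0588). With the reads of both copies summed, the CP2 average was -0.47 (SE 0.142, adjusted p 0.0258) and the vehicle average -0.03 (SE 0.165, adjusted p 0.939). Hspb1 had the largest standard errors of the 10 genes. It ranged from 3.41 to 11.1 CPM in KO CP2 F and from 8.25 to 20.7 CPM in WT CP2 F, and its CP2 average of -0.45 (SE 0.227) did not pass (adjusted p 0.216). Dnajb1, the main cytosolic DNAJ partner of inducible HSP70, measured 45.9 to 55.4 CPM in 4 KO vehicle F samples and 144 CPM in L246. Its vehicle average was -0.06 (SE 0.178, adjusted p 0.889) and its CP2 average -0.40 (SE 0.155, adjusted p 0.0986). Without L252, L257 and L246 the CP2 average of Dnajb1 was smaller in size, at -0.34, and passed (adjusted p 0.00257 by edgeR). Of these 3 samples only L257 is in a CP2 group, while all 3 enter the spread that the fit shares over groups.

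**Figure D3:**
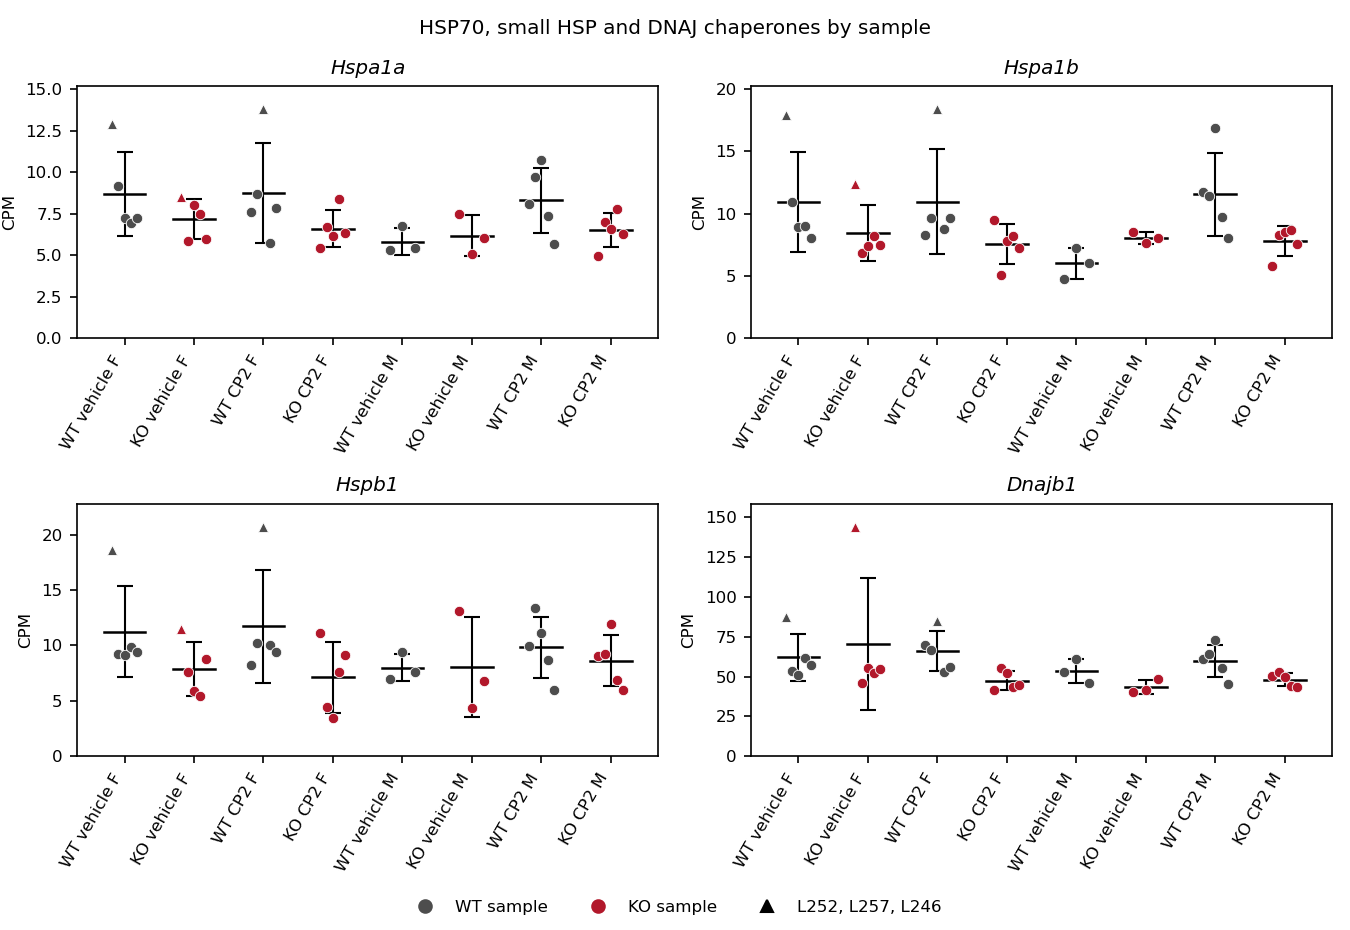
CPM per sample (points) with group mean and SD (bars) for Hspa1a, Hspa1b, Hspb1 and Dnajb1 in the 8 groups; triangles mark L252, L257 and L246. L246 at 144 CPM of Dnajb1 stands away from the other samples of all groups, and Hspa1b in KO CP2 samples stays between 5.06 and 9.48 CPM.

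Among the ER chaperones, Hspa5 (BiP, the HSP70 of the ER lumen and a regulator of the unfolded protein response sensors) was called lower in KO under CP2 and not under vehicle. In CP2 F, WT samples measured 250.8, 244.1, 422.1, 245.9 and 258.0 CPM and KO samples 180.5, 167.5, 174.7, 178.6 and 231.2 CPM. No KO sample reached the lowest WT sample. The change was a fall of 34.5% (log2 fold change -0.61, SE 0.15, adjusted p 0.0292 by edgeR). In CP2 M, WT samples measured 304.1, 317.6, 357.9, 280.7 and 222.2 CPM and KO samples 205.2, 245.7, 238.1, 184.6 and 196.8 CPM. WT sample L289 lay within the KO range, and the change was -0.47 (SE 0.15, adjusted p 0.0426). It did not pass without L266 and L291 (adjusted p 0.0904), nor without any one of L266, L298, L299, L259, L262 and L263 (adjusted p at most 0.134). In vehicle F, WT samples measured 363.8, 242.5, 207.6, 251.0 and 241.5 CPM and KO samples 240.4, 222.7, 181.1, 199.1 and 252.2 CPM, with overlap. The vehicle average of -0.24 (SE 0.122) did not pass (adjusted p 0.246), and the CP2 average of -0.54 (SE 0.106) did (adjusted p 0.000926). The 2 averages were not shown to differ: the CP2 effect in KO minus that in WT was -0.30 (SE 0.162, adjusted p 0.414). The CP2 F call failed without any one of L201, L216, L227, L233 and L257 (adjusted p at most 0.128), and without L252, L257 and L246 the change was -0.41 (adjusted p 0.0743). The CP2 average without these 3 samples, of which only L257 is in a CP2 group, was -0.44 (adjusted p 0.00023 by edgeR).

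Hsp90b1 (GRP94, the HSP90 of the ER) was called lower in KO in both averages. In vehicle F, WT samples measured 352.2, 261.6, 263.2, 271.9 and 272.9 CPM and KO samples 238.9, 241.6, 208.4, 215.6 and 251.8 CPM. The groups did not overlap, and the log2 fold change was -0.30 (SE 0.0773, adjusted p 0.0188 by edgeR). Without L252, L257 and L246 it was -0.21 and did not pass (adjusted p 0.101), nor did it without any one of L252, L281 and L282 (adjusted p at most 0.111). In vehicle M, WT samples measured 288.0, 251.5 and 242.9 CPM and KO samples 228.5, 211.6 and 224.2 CPM. There was no overlap, and the change of -0.24 (SE 0.0998) did not pass (adjusted p 0.298). In CP2 M, WT samples L259, L262, L263 and L267 measured 275.7, 294.2, 300.2 and 287.9 CPM, with L289 the lowest of the group, and KO samples 241.3, 254.2, 237.6, 221.1 and 229.0 CPM. There was no overlap here either, and the change was -0.27 (SE 0.0773, adjusted p 0.0211), which failed without any one of L298, L299, L262 and L263 (adjusted p at most 0.0597). In CP2 F the change of -0.23 (SE 0.0773) did not pass (adjusted p 0.108). The averages were -0.27 (SE 0.0631, adjusted p 0.00749) under vehicle and -0.25 (SE 0.0547, adjusted p 0.00173) under CP2, and both passed without L252, L257 and L246.

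Pdia4, the disulfide isomerase, had the lowest level of the 3 ER genes. In CP2 F, WT samples measured 38.5, 41.9, 64.5, 40.9 and 38.8 CPM and KO samples 27.2, 26.3, 22.9, 30.8 and 35.9 CPM. The groups did not overlap, and the change of -0.65 (SE 0.183) did not pass (adjusted p 0.0578 by edgeR). In CP2 M, WT samples measured 43.6, 48.2, 56.3, 43.6 and 32.2 CPM and KO samples 37.3, 39.1, 44.2, 33.6 and 36.8 CPM. These groups overlapped, with WT sample L289 below all KO samples. The CP2 average was -0.44 (SE 0.129, adjusted p 0.0238 by edgeR), which did not pass without L266 and L291 (-0.43, adjusted p 0.0592) nor without L257 or L263 alone (adjusted p at most 0.0582). Under vehicle the average was -0.42 (SE 0.15, adjusted p 0.0895).

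Within a treatment and letter, the counts of chaperones called lower were 3 in vehicle F, where 2.94% of all genes were called lower, 0 in vehicle M, where 0.289% were, 2 in CP2 F, where 1.28% were, and 5 in CP2 M, where 5.24% were. For the 0 in vehicle M by edgeR, 4 chaperones were lower at an unadjusted p under 0.05, as were 6.4% of all genes, and DESeq2 called 0. KO and WT samples did not overlap, with KO lower, for 2 chaperones in vehicle F (Hsph1 and Hsp90b1), as for 2.87% of all genes, and for 4 in vehicle M (Hsph1, Hspa8, Hsp90aa1 and Hsp90b1), as for 10.3%. The same held for 2 in CP2 F (Hspa5 and Pdia4), as for 1.77% of all genes, and for 4 in CP2 M (the same 4 as in vehicle M), as for 6.33%. Hspa1b in vehicle M was the only chaperone for which every KO sample lay above every WT sample, at 7.61 to 8.56 against 4.76 to 7.22 CPM, as for 10.5% of all genes, and it did not pass (0.42, SE 0.289, adjusted p 0.611). The difference between F and M in the KO effect was called for 0 of the 10 under either treatment by edgeR and by DESeq2, where edgeR called 0.102% of all genes under vehicle and 0.82% under CP2. At an unadjusted p under 0.05 it was called for 1 chaperone under vehicle, Hspa1b (F minus M -0.79, SE 0.364, adjusted p 0.552), and for 0 under CP2, with 8.37% and 14.2% of all genes.

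Other measures moved with genotype in the same samples. The 10 immediate early genes, which neurons switch on with activity, had log2 fold changes below 0 in 10 of 10 in the CP2 average (3 called lower, median -1.14). Under vehicle the signs of their fold changes were opposite in F and M, and KO vehicle F holds L246. Values of this list without L246 are not given here. In vehicle F, 10 of 10 were above 0 (3 called higher, 7 at an unadjusted p under 0.05, median 1.57), and in vehicle M 10 of 10 were below 0 (0 called by edgeR, 1 at that level, median -1.06). In the vehicle average, which sets these against each other, edgeR called 0, with 0 at an unadjusted p under 0.05. Their summed level ranged from 257.8 to 682.8 CPM in KO and 447.7 to 1436.9 CPM in WT in CP2 F, and from 183.9 to 365.8 and 419.9 to 1050.7 CPM in CP2 M. In vehicle F its median was 489 and its highest value 4226.2 CPM in KO, against 406.2 and 874.2 CPM in WT, and in vehicle M it ranged from 174.1 to 289.3 CPM in KO and 439 to 621.2 CPM in WT. The mean log2 CPM of the 10 immediate early genes differed between KO and WT by 0.499 in vehicle F and -1.26 in vehicle M. Under CP2 the difference was -0.817 in F and -1.26 in M. None passed the exact permutation test (adjusted p 0.778, 0.222, 0.222 and 0.0635 in that order). Groups held 3 samples each in vehicle M and 5 each otherwise. With the mean log2 CPM of these genes as a covariate, 3 of the 7 chaperones called in the CP2 average passed: Hsph1 (-0.51, adjusted p 0.00174), Hspa5 (-0.47, adjusted p 0.0126) and Hsp90b1 (-0.22, adjusted p 0.0182). Under vehicle all 4 passed with it. The mean log2 CPM of 8 hippocampal markers differed between KO and WT by -0.512 in vehicle F and by -0.357 in CP2 M, both with an adjusted p of 0.0318 (exact permutation test, n = 5 each), and by 0.307 and 0.205 in vehicle M and CP2 F. In vehicle F 7 of 8 were below 0 (2 called lower), and in CP2 M 6 of 8 (1 called lower, 1 higher). Summed levels overlapped in both. They were 408.4 to 478.9 CPM in KO and 442.5 to 571.4 CPM in WT in vehicle F. In CP2 M they were 472.3 to 585.2 CPM in KO and 468.8 to 551.3 CPM in WT. With the hippocampal score as a covariate, 3 in place of 5 chaperones were called in CP2 M. Red cell genes were lower in KO in the vehicle average (4 of 5 called), with summed levels of 74.8 to 128.7 CPM in KO and 85.1 to 387 CPM in WT in F, and of 38.6 to 87.3 and 114.6 to 647.5 CPM in M. Some glial markers were called higher in KO under CP2. Of 7 microglia markers, 5 were called higher in CP2 M (7 of 7 above 0, median 0.39), 0 in CP2 F and 3 in the CP2 average (6 of 7 above 0, median 0.25), and their summed level in CP2 M ranged from 355.4 to 466.2 CPM in KO and 280.0 to 350.6 CPM in WT, with no overlap. Of 7 astrocyte markers, 2 were called higher in CP2 M (7 of 7 above 0, median 0.25) and 1 in the CP2 average, with summed levels in CP2 M of 5958.8 to 7042.1 CPM in KO and 4881.7 to 5762.9 CPM in WT. Of 7 oligodendrocyte markers, 7 were above 0 in the CP2 average (1 called higher, median 0.22), and summed levels overlapped in CP2 F and in CP2 M. Under vehicle none of the 3 glial lists had a marker called higher by edgeR in F, in M or in their average (at an unadjusted p under 0.05, 1 astrocyte marker in M and 1 in the average), and 1 microglia marker was called lower in the average. The part of the glial and red cell levels in the result was not tested. No immediate early, hippocampal, red cell or glial marker was at 0 in any sample, the lowest count being 15 (Egr2). Reads outside annotated genes made up 9.24% of the total in KO and 5.99% in WT in vehicle F, and 7.33% and 11.5% in CP2 M, opposite in direction (exact permutation test, adjusted p 0.106 and 0.0716, n = 5 each). With that share as a covariate, 1 chaperone, Hsph1 (-0.49, adjusted p 0.0201 by edgeR), was called in the vehicle average in place of 4. The log2 fold changes of the others stayed below 0, at -0.23 for Hsp90b1 (adjusted p 0.111) against -0.27 without the covariate, -0.18 for Hspa8 (adjusted p 0.223) against -0.26, and -0.18 for Hsp90aa1 (adjusted p 0.182) against -0.25.

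The other folding genes, from lists of 39 cytosolic and 33 ER genes, showed decreases in KO as well. Of the 39 cytosolic folding genes, 14 fell and 0 rose in the vehicle average, and 13 fell and 2 rose in the CP2 average, with medians of -0.14 and -0.04. Over all genes tested, 3.8% were called lower and 2.87% higher under vehicle, and 6.07% and 5.54% under CP2. At an unadjusted p under 0.05, 4 of the 39 were higher under vehicle, as were 10.5% of all genes. Under vehicle the largest changes were in Chordc1 (an HSP90 co-chaperone, -0.62, SE 0.14), Cryab (a small heat shock protein, -0.57, SE 0.133), Stip1 (the adaptor between HSP70 and HSP90, -0.41, SE 0.0694) and Fkbp4 (an HSP90-binding prolyl isomerase, -0.40, SE 0.0854). Under CP2 they were in Dnajb5 (-0.80, SE 0.131), Chordc1 (-0.72, SE 0.121), Hspb6 (a small heat shock protein, higher by 0.64, SE 0.123) and Ahsa2 (an HSP90 activator homologue, -0.47, SE 0.0777). Hsf1, named here after its values were seen, fell by 0.25 (SE 0.0664, adjusted p 0.0157 by edgeR) under vehicle and by 0.41 (SE 0.0575, adjusted p 9.76e-06) under CP2. Of the 33 ER folding genes, 7 fell and 0 rose under vehicle, and 10 fell and 3 rose under CP2, with medians of -0.10 and -0.08. None of the 33 was higher under vehicle at an unadjusted p under 0.05, against 10.5% of all genes. Sdf2l1, a partner of ER DNAJ proteins, fell by 0.92 (SE 0.205) under vehicle and 0.68 (SE 0.175) under CP2, and Creld2, an ER stress-induced protein, fell by 0.45 (SE 0.134) and 0.62 (SE 0.116). Calr, the lectin chaperone calreticulin, fell by 0.44 (SE 0.0843) under vehicle. Pdia6, a disulfide isomerase, fell by 0.39 (SE 0.0877) under vehicle and 0.45 (SE 0.0759) under CP2, and Manf, a secreted ER stress-inducible factor, fell by 0.37 (SE 0.0948) under CP2.

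The list of 14 unfolded protein response sensors and regulators moved in both directions. Under vehicle 1 fell and 1 rose: Atf6b, an ER-bound transcription factor, by -0.29 (SE 0.0606), and Eif2ak3, which encodes the sensor kinase PERK, by 0.23 (SE 0.0601). Under CP2 3 fell and 2 rose, with Xbp1, the transcription factor downstream of IRE1, at -0.43 (SE 0.0879), Atf6b at -0.35 (SE 0.0524), Eif2a at 0.34 (SE 0.0545) and Atf4, the transcription factor of the integrated stress response, at -0.33 (SE 0.0805). Eif2a, though in the list, encodes the separate initiation factor eIF2A and not the eIF2 alpha subunit that PERK phosphorylates. Over all genes tested, 3.8% were called lower and 2.87% higher under vehicle, and 6.07% and 5.54% under CP2. The list's median was 0.00 under vehicle and -0.02 under CP2. The counts of Xbp1 do not separate its spliced from its unspliced form.

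**Figure D4:**
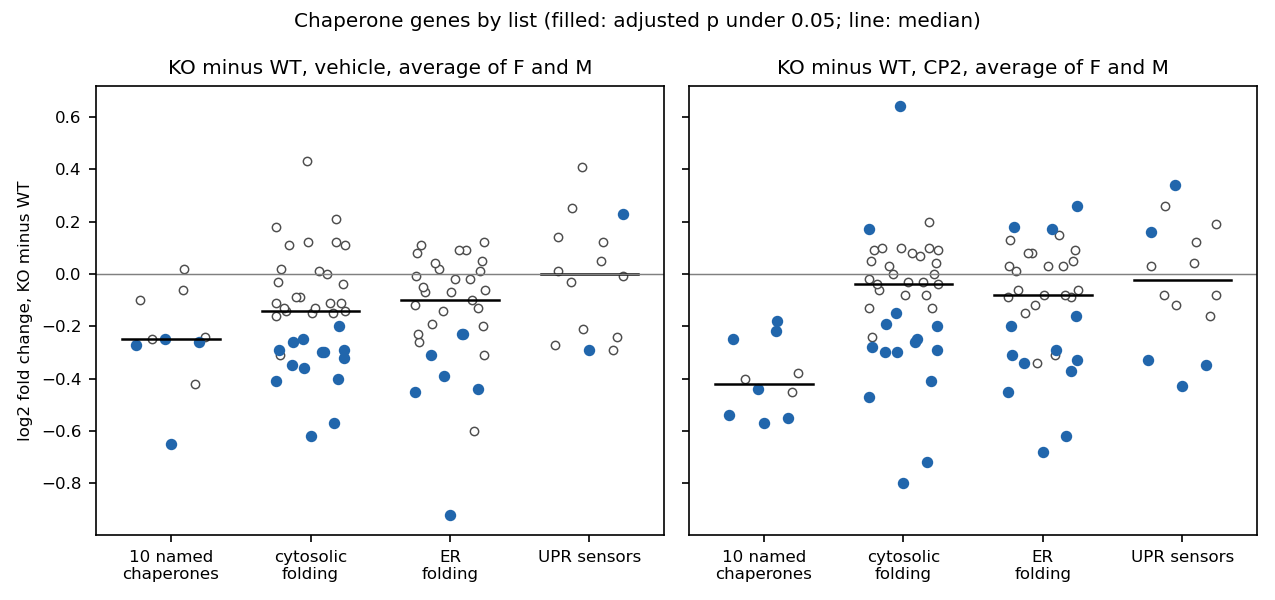
Log2 fold change, KO against WT averaged over F and M, for the 10 named chaperones and the lists of cytosolic folding genes (39), ER folding genes (33) and unfolded protein response (UPR) sensors (14); each point is a gene, filled where the adjusted p is under 0.05, and lines are medians. The medians of the named chaperones, -0.25 under vehicle and -0.42 under CP2, lie below those of the lists. Chaperones and lists were chosen with earlier results of these data known.

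CP2 given for 3 days changed none of the 10 chaperones against vehicle at an adjusted p under 0.05, in KO or in WT. In KO, edgeR called 0 of 10 in F, in M and in their average, where 0.0859%, 5.1% and 3.91% of all genes were called. In WT it called 0 of 10 and 0% of all genes. DESeq2 called 0 of 10 in each of these comparisons. At an unadjusted p under 0.05, 1 chaperone was lower in KO F, Dnajb1 (-0.57, SE 0.219, adjusted p 0.306), whose vehicle group holds L246, and 0 changed in KO M or in the KO average. Of all genes 11%, 19.4% and 18.1% passed that level in KO F, KO M and their average. In WT M, 2 were higher at that level, in WT F 0 and in the WT average 1 (Hspa1b, 0.47, SE 0.171, adjusted p 1), against 3.04%, 2.65% and 4.03% of all genes. The 2 in WT M were Hspa1b and Hspa1a. Hspa1b measured 4.76, 7.22 and 6.08 CPM in the 3 vehicle samples and 11.7, 11.4, 16.9, 9.71 and 8.01 CPM in the 5 CP2 samples. Every CP2 sample lay above every vehicle sample, as for 2.49% of all genes. The log2 fold change of 0.94 (SE 0.265, unadjusted p 0.00121, interval 0.40 to 1.48) had an adjusted p of 1. For Hspa1a the change was 0.51 (SE 0.223, interval 0.06 to 0.96, adjusted p 1), and in WT F the changes of Hspa1b and Hspa1a were 0.00 (SE 0.22) and 0.01 (SE 0.189). In the same WT M samples the hippocampal marker score was higher with CP2 by 0.404 (5.16 against 4.76, exact permutation test, adjusted p 0.0477, n = 5 and 3). Red cell genes were lower in 5 of 5 at an unadjusted p under 0.05 (0 called by edgeR, median -2.07), with summed levels of 74.6 to 130.5 CPM with CP2 and 114.6 to 647.5 CPM with vehicle. Their part in the Hspa1b and Hspa1a values was not tested. In the KO average with CP2, edgeR called 4 of 7 oligodendrocyte markers higher (7 of 7 above 0, median 0.39). It also called 4 of 7 microglia markers higher (7 of 7 above 0, median 0.30). In KO F, whose vehicle group holds L246, 7 of 10 immediate early genes were lower at an unadjusted p under 0.05 (0 called). In KO M 0 were. In KO M, reads outside annotated genes were 7.33% against 12.1% with vehicle (exact permutation test, adjusted p 0.0716, n = 5 and 3). The part of these measures in the KO values was not tested.

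The 95% intervals of the CP2 effect differed in width among the 10 chaperones. In the KO average, the interval was -0.02 to 0.38 for Hsph1, -0.05 to 0.19 for Hspa8 and Hsp90b1, -0.04 to 0.19 for Hsp90aa1, -0.31 to 0.16 for Hspa5 and -0.20 to 0.37 for Pdia4 on the log2 scale. It was wider for Hspa1a (-0.32 to 0.27), Hspa1b (-0.45 to 0.24), Dnajb1 (-0.55 to 0.13) and Hspb1 (-0.52 to 0.48). In the WT average it was -0.10 to 0.30 for Hsph1, -0.09 to 0.15 for Hspa8, -0.11 to 0.12 for Hsp90aa1, -0.07 to 0.17 for Hsp90b1, -0.01 to 0.46 for Hspa5 and -0.18 to 0.39 for Pdia4. For the others it was -0.03 to 0.55 for Hspa1a, -0.22 to 0.47 for Dnajb1 and -0.32 to 0.68 for Hspb1, and for Hspa1b, at 0.12 to 0.82, it did not include 0. The CP2 effect in KO minus that in WT was called for 0 of 10 by edgeR and by DESeq2, where 0.715% of all genes were called by edgeR. At an unadjusted p under 0.05 it was lower for 1, Hspa1b (-0.57, SE 0.24, adjusted p 0.248), where 14.6% of all genes passed that level. Of the other folding genes, Bag1, a nucleotide exchange factor of HSP70, rose by 0.23 (SE 0.0493, adjusted p 0.00648 by edgeR) and Cryab by 0.45 (SE 0.126, adjusted p 0.0379) with CP2 in the KO average, and 0 of the 33 ER folding genes were called there. That comparison called 3.91% of all genes. The difference between F and M in the CP2 effect was called for 0 of 10 chaperones in KO and in WT by edgeR and by DESeq2, where edgeR called 0.691% and 0% of all genes. At an unadjusted p under 0.05 it was called for 1 in each: Dnajb1 in KO (F minus M -0.71, SE 0.337, adjusted p 0.317) and Hspa1b in WT (-0.93, SE 0.342, adjusted p 1), with 14.7% and 2.14% of all genes.

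**Figure D5:**
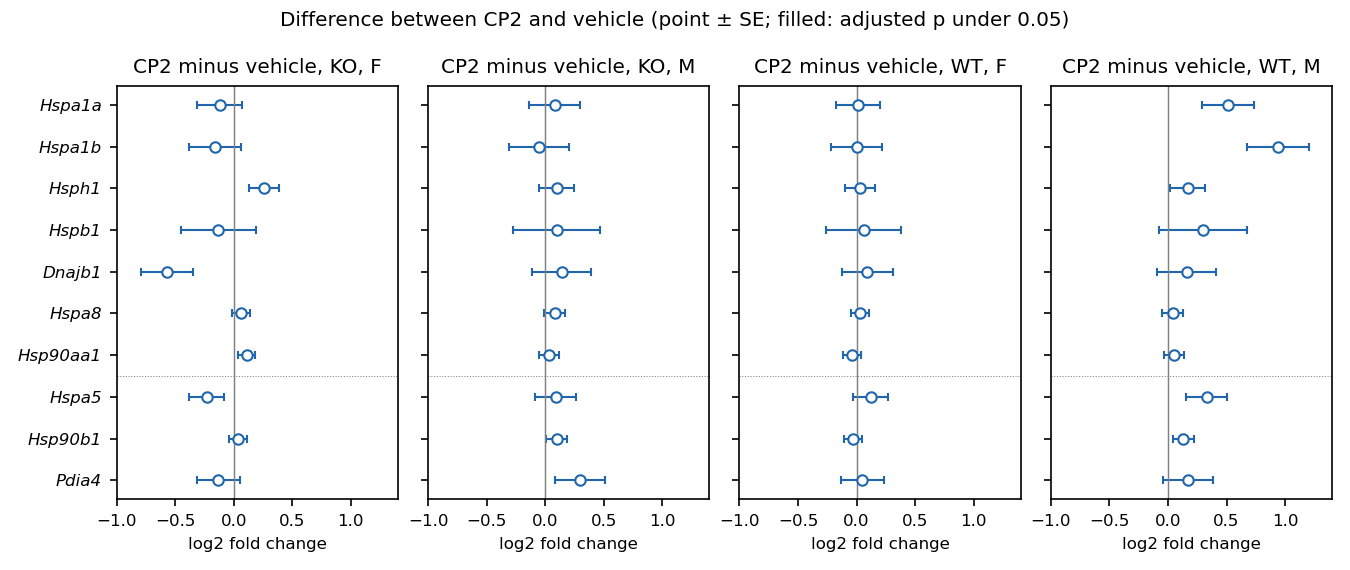
Log2 fold change of each chaperone, CP2 against vehicle, with its standard error (horizontal bars) in KO and WT for each letter; filled points would have an adjusted p under 0.05 and there are none. Hspa1b in WT M lies farthest from 0, at 0.94.

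The chaperones varied together from sample to sample. All 45 pairs had a positive Pearson correlation of log2 CPM over the 36 samples, from 0.29 to 0.90 with a median of 0.60, and 44 had an adjusted permutation p under 0.05. Samples were shuffled regardless of group. On deviations from group means, which take out the group differences, all 45 were again positive, with a median of 0.51 and a lowest value of 0.14. Genes of 1 sample share its depth and tissue mix, and the part of these in the correlations was not tested. The 2 most abundant genes, Hspa8 and Hsp90aa1, had r = 0.90 and Spearman's rho = 0.90, each with a permutation p of 1e-05, the smallest that 1e+05 permutations can give (adjusted p 2.5e-05 for r and 3e-05 for rho). Without the 2 samples farthest from the median of Hspa8 their r was 0.86, and on deviations it was 0.82. The ER pair Hspa5 and Hsp90b1 had r = 0.89 and rho = 0.86 (permutation p 1e-05 each, adjusted p 2.5e-05 and 3e-05), 0.85 without the 2 farthest samples and 0.89 on deviations. Hsph1 and Hspa8 had r = 0.89 and rho = 0.86 with the same p-values, and 0.81 on deviations. The weakest pair by r was Dnajb1 with Pdia4, at r = 0.29 (permutation p 0.0885, adjusted p 0.0885) and rho = 0.45 (permutation p 0.00639, adjusted p 0.00815). By rho it was Hspa1a with Hsp90aa1, at rho = 0.25 (permutation p 0.144, adjusted p 0.144). Their r of 0.43 was 0.16 without the 2 samples farthest from the median of Hspa1a. Hspa1a with Hsp90b1 did not pass by rho either (0.33, permutation p 0.0538, adjusted p 0.0551).

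Over the same 36 samples, the genes whose log2 CPM followed the mean of the 3 ER chaperones most closely, out of 15410 others with a mean of at least 1 CPM, were Pdia6 and Xbp1 (Pearson r = 0.93 each), Slc5a3, a sodium and myo-inositol transporter (0.92), Calr (0.89) and P4ha1, a collagen prolyl hydroxylase subunit of the ER (0.89). On deviations from group means they were Pdia3 (0.88), Xbp1 (0.87), Pdia6 (0.85), Slc5a3 (0.85) and Manf (0.84). For the mean of the 7 cytosolic chaperones they were Xbp1 (0.89), Manf (0.84), Creld2 (0.83), P4ha1 (0.82) and Pdia6 (0.81). On deviations they were Irs2 (0.81), Xbp1 (0.80), Dusp4 (0.79), Ahsa2 (0.75) and Manf (0.71). These genes were picked from all others for their likeness, and the values are a description.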

How the data were processed

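Polyadenylated RNA was extracted from brain with a Trizol-based kit and libraries were made with Illumina TruSeq 2, per the labels' protocols. The authors deposited a table of raw counts per gene, made with STAR and HTSeq on GRCm39, per the submitters' processing notes; versions, annotation and strand setting are not given in the sources used here. Summary rows, among them reads in no feature (5.09% to 13.2% of reads), were kept out of library sizes and tests. Gene symbols from GENCODE M21 matched 52073 of 56980 rows (91.4%). Counts were filtered with filterByExpr, scaled by TMM and fitted with edgeR 4.0.16 (R 4.3.3, limma 3.58.1) by robust quasi-likelihood, 1 coefficient for each of 8 groups over all 36 samples. Averages weight F and M equally. P-values were adjusted by Benjamini-Hochberg over 25601 genes for each of 17 contrasts. A prior count of 2 went into log2 CPM. Intervals are 95%. Intervals and tests do not cover uncertain read assignment between copies. DESeq2 1.42.0, other scalings and filters, covariates and left-out samples were tried as alternatives. The steps were tested on simulated data. In vehicle F 38.5% of 195 genes changed by 1.5-fold were called, with 4 unchanged genes. In vehicle M 59.5% of 195 genes changed by 3-fold were called, with 5 unchanged genes. In CP2 M, with no gene changed, 0 were called. Changes of the size of most reported here can therefore be missed. The 10 genes are always named. From each other list up to 4 called genes with the largest absolute change are named per comparison, and for likeness the 5 genes with the highest r. The members and lists were chosen with earlier results of these data known.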

Additional observations from a re-analysis of the deposited data

Results flagged for a closer look

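Of 60 combinations of a chaperone and a group of 5 samples, 13 had 1 sample farther from the rest than Dixon's 95% limit allows. For normally distributed values chance gives such a sample in about 1 in 20 groups. The chaperones of a sample vary together, so the 60 combinations are not independent and the 13 cannot be set against that rate. All 13 were the highest sample of their group. L252 (WT vehicle F) accounted for 5: Hspa1b at 17.9 CPM, Hspb1 at 18.6 CPM, Hspa5 at 363.8 CPM, Hsp90b1 at 352.2 CPM and Pdia4 at 58.8 CPM. L257 (WT CP2 F) stood apart in the same 5 genes, with 18.4 CPM of Hspa1b, 20.7 CPM of Hspb1, 422.1 CPM of Hspa5, 333.7 CPM of Hsp90b1 and 64.5 CPM of Pdia4. L246 (KO vehicle F) stood apart in Dnajb1 at 144 CPM and in Hspa1b at 12.4 CPM. L234 (KO CP2 F) did so in Hspa5, at 231.2 CPM.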

How the results depend on the processing

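No log2 fold change of a called chaperone changed sign under any alternative run. Hsph1 passed in vehicle F, CP2 M and both averages under every alternative and every left-out sample, and Hspa5 and Hsp90b1 did so in the CP2 average. With the percentage of reads outside genes in the model, the chaperones called numbered 1 in vehicle F, 1 in the vehicle average and 1 in CP2 F, against 3, 4 and 2. Without the filter on low counts CP2 F gave 1, and with the number in the title as a covariate CP2 M gave 1 against 5, CP2 F 3 and the CP2 average 9. The fit within the same letter gave 1 in vehicle F, 0 in CP2 F and 2 in vehicle M against 0 (Hsph1 -0.50, adjusted p 0.00276, and Hspa8 -0.30, adjusted p 0.0129, by edgeR). In CP2 M it gave 7 against 5, adding Hspa1b (-0.56, adjusted p 0.02) and Dnajb1 (-0.31, adjusted p 0.0438). Of alternatives chosen after seeing the data, the immediate early score as a covariate gave 1 in CP2 F, 1 in CP2 M and 3 in the CP2 average against 7, and the hippocampal score gave 3 in CP2 M. Without L252, L257 and L246 the counts were 1 in vehicle F and 0 in CP2 F, but 7 in CP2 M (with Hspa1b, adjusted p 0.0167, and Dnajb1, adjusted p 0.0426, added) and 8 in the CP2 average. None of these 3 samples is in a CP2 M group. Log2 fold changes in CP2 M were -0.57 for Hspa1b and -0.32 for Dnajb1, against -0.56 and -0.31 with all samples. The fit shares its estimate of spread over all groups, so samples outside a comparison can change its p-values. Without L266 and L291 the count was 2 in CP2 M. In every such case the cause was not tested. Leaving out 1 sample at a time gave 1 to 5 in vehicle F (1 without L281 or L252), 0 to 0 in vehicle M, 4 to 5 in the vehicle average, 0 to 4 in CP2 F (0 without L201 or L257), 1 to 5 in CP2 M (1 without L299, L262 or L263) and 5 to 8 in the CP2 average (5 without L257 or L263). The CP2 comparisons, their difference between genotypes and the differences between F and M gave 0 to 0. DESeq2 called 3, 0 and 4 in vehicle F, M and average and 3, 6 and 8 under CP2. No paired analysis was possible because the groups share no number in the titles.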
